A study of Homo sapiens with 6 samples.

Results

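The 10 genes described here encode AP-1 transcription factors: FOS, FOSB, FOSL1 and FOSL2 of the FOS subfamily, JUN, JUNB and JUND of the JUN subfamily, and ATF3, BATF and BATF3 of the related ATF and BATF proteins. They were chosen by symbol, and each has 1 row among the 32353 genes of the count table and 1 among the 31513 genes of the FPKM table. RNA was sequenced from CAL27 cells, an established cell line of human tongue squamous cell carcinoma, in 2 groups of 3 libraries. The control cells had been given a control plasmid, and the other cells overexpressed RBM24, which binds RNA and regulates splicing in heart and skeletal muscle. The series links RBM24 to apoptosis and to the transcriptome as a whole, with alternative splicing as a further question. All libraries came from this single cell line, and the labels name neither the vector, the time after transfection nor separate cultures, so the p-values below reflect scatter among libraries that may be purely technical.

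AP-1 is a dimer of basic leucine zipper proteins that binds short DNA elements in the promoters and enhancers of growth, stress, matrix and differentiation genes. JUN proteins pair with each other or with FOS proteins, whereas FOS proteins need a JUN partner to bind DNA. FOS, FOSB, JUN, JUNB and ATF3 are immediate early genes, switched on for a short time by growth factors and stress through MAP kinases, and their mRNAs decay quickly. FOSL1, which encodes FRA-1, is the FOS protein best known from squamous and other epithelial carcinomas, while BATF and BATF3 are best known from immune cells.

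The libraries held between 53558773 and 68804210 gene counts, and 17887 genes had enough reads to be tested. RBM24 itself, which checks the labels, had 129, 159 and 220 reads under the control plasmid and 8651, 5918 and 7648 with overexpression. In a principal component analysis of log2 CPM, control library 1 stood apart on the main axis, which held 33.0% of the variance. The axis also separated the groups, with the control libraries at -33.4, -4.95 and -0.036 and the RBM24 libraries at 13.7, 15.4 and 9.28. All 9 keratinocyte and carcinoma markers examined were tested, and 0 of them passed the test in edgeR (1 higher by DESeq2 and 0 by limma-voom). Changes were positive for 7 of the 9. An unadjusted p under 0.05 was reached by 3, all with positive changes, against 13% of all tested genes. The groups did not overlap for 3, all higher, against 18.1% of all tested genes. The summed level of the 9 markers was 1354 to 1403 CPM in the control libraries and 1441 to 1465 with RBM24. Its part in the results below was not tested. The markers of other cell types were low: fibroblast markers summed to between 13.7 and 16.9 CPM per library, immune markers to between 18.7 and 21.8, almost all of it CD14, and endothelial markers to between 8.69 and 11.7. PTPRC and CD3E, defining markers of leukocytes and of T cells, had 3 and 1 reads over all 6 libraries.

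Among the AP-1 genes of the control cells, FOSL1 dominated. Per gene length, on the FPKM scale of the deposited table, it stood at 157, 185 and 173 in the control libraries and at 190, 186 and 192 with RBM24, a higher control level than in 98.6% of the 13789 tested protein-coding genes. JUNB followed at 64.5 ± 4.14 FPKM (SD, n = 3) and JUND at 51.7 ± 3.58 in the control libraries. The JUNB values, between 61.8 and 69.3, all lay above the highest JUND value, 55.8. JUN, the founding member of its subfamily, was lower than its relatives at 15.7 ± 1.24 FPKM (SD, n = 3), FOSL2 stood at 9.13 ± 0.318 and the stress-induced ATF3 at 4.01 ± 0.370. None of the control values of these 6 genes overlapped with those of the next gene in the order.

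The classical immediate early FOS was near the floor of expressed genes, at 0.78, 0.62 and 0.66 FPKM in the control libraries, above 21.3% of tested protein-coding genes. FOSB (0.55 to 0.76 FPKM) overlapped with it in the control libraries and could not be ordered against it, and all FOSB values lay above the BATF3 values of 0.42 to 0.52. BATF had 2, 2 and 2 reads in the control libraries and 1, 0 and 5 with RBM24, did not pass the filter and was not tested. It had the lowest level of the 10. FPKM depends on the gene length used. The lengths implied by the deposited values were 1.02 to 1.118 times the summed exons of GENCODE 29 for the 10 genes, and recomputing the control levels with those exons gave the same order of all 10.

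**Figure D1:**
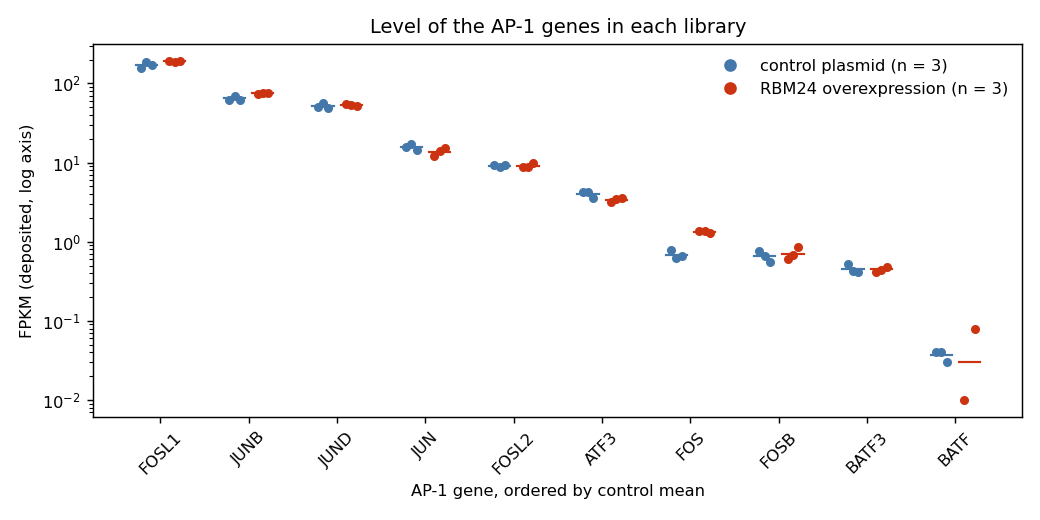
Deposited FPKM (log axis) of the 10 AP-1 genes in each of the 6 libraries, control plasmid in blue and RBM24 overexpression in red, with the mean of each group as a line; the BATF value of 0 in RBM24 library 2 cannot be drawn on a log axis. The genes run from FOSL1 at 157 to 192 FPKM down to BATF at 0 to 0.08. FOS is the gene whose groups stand furthest apart, at 0.62 to 0.78 against 1.27 to 1.38. Those of FOSL1, JUNB and ATF3 do not overlap either, by smaller margins on the log axis.

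With RBM24, FOS rose and 0 of the other 8 tested AP-1 genes passed the test. A gene was called at a Benjamini-Hochberg adjusted p under 0.05 over all genes in edgeR's quasi-likelihood test, which called 0.855% of all tested genes higher and 0.682% lower, 1.54% in all. Among the 9, 1 gene was thus called higher, FOS, and 0 lower. An unadjusted p under 0.05 was reached by FOS and JUNB with positive changes and by JUN and ATF3 with negative ones, against 13% of all tested genes. DESeq2, which called 2.34% of the genes it tested, and limma-voom, which called 1.55%, each called 1 AP-1 gene higher and 0 lower. The libraries of the groups did not overlap for 3 of the 9, FOS, JUNB and ATF3, against 18.1% of all tested genes. In RNA from whole cultures, fewer cells expressing a gene and less of its RNA per cell cannot be told apart. The median log2 fold change of the 9 genes was 0.02, that of all tested genes -0.004.

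In the FOS subfamily, FOS (ENSG00000170345.10, GRCh38 chromosome 14, 75278774 to 75282230, plus strand in GENCODE 29) had 153, 117 and 141 reads in the control libraries and 328, 249 and 265 with RBM24. Scaled to library size, these were 2.78, 2.18 and 2.24 CPM against 4.75, 4.60 and 4.31. The FOS groups stood well apart, the lowest RBM24 value being far above the highest control value. FOS was 1.90-fold higher, a log2 fold change of 0.93 (SE 0.117, 95% interval 0.68 to 1.17; edgeR adjusted p = 4.73e-04). The call held without each of the 6 libraries in turn, control library 1 included (log2 fold change 1.04 without it). It was lost only with limma on log2(FPKM + 1) over all 31513 genes (difference 0.47, adjusted p = 0.101). With the same pseudocount and the filter on low counts, the difference was also 0.47 and FOS passed (adjusted p = 0.0188).

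FOSB (chromosome 19, 45467995 to 45475179, plus strand), the closest relative of FOS in its immediate early response, stood at 4.71, 4.03 and 3.24 CPM in the control libraries and at 3.58, 3.97 and 5.04 with RBM24. The groups overlapped throughout (log2 fold change 0.07, 95% interval -0.23 to 0.38; edgeR adjusted p = 0.887), and the sign turned to -0.08 without RBM24 library 3 and -0.06 without control library 3. The FOSB locus overlaps ERCC1 (71.3 CPM on average) on the opposite strand, without a shared exon base in GENCODE 29. The ratio of FOS to FOSB counts, which no scaling of libraries touches, was 0.591, 0.539 and 0.691 in the control libraries and 1.33, 1.16 and 0.855 with RBM24. The groups do not overlap, but an exact two-sided permutation test of 3 against 3 cannot go below p = 0.1, which it gave. For this and the other 24 sums, shares and ratios computed, of which all but the 3 subfamily sums were added after values had been seen, that smallest p became 0.192 after Benjamini-Hochberg adjustment.

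The 2 FOS-like genes with the higher levels moved little. FOSL1 (chromosome 11, 65892049 to 65900573, minus strand) had 330.0, 385 and 347 CPM in the control libraries and 386, 374 and 386 with RBM24, so that control library 2 lay within the RBM24 range (log2 fold change 0.11, 95% interval -0.01 to 0.23; edgeR adjusted p = 0.452). On the deposited FPKM scale the FOSL1 groups did not overlap, by a margin of 185.06 against 185.76. FOSL2 (chromosome 2, 28392448 to 28417312, plus strand), which encodes FRA-2, ranged from 69.2 to 74.0 CPM in the control libraries and from 66.9 to 74.8 with RBM24 (log2 fold change -0.03, 95% interval -0.15 to 0.08; adjusted p = 0.859).

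In the JUN subfamily, the 3 intronless genes did not share a direction. JUNB (chromosome 19, 12791496 to 12793315, plus strand), whose product is often a weaker activator than JUN and can oppose it, had 127, 139.7 and 121 CPM in the control libraries and 145, 149 and 146 with RBM24. The JUNB groups did not overlap, RBM24 being higher, as in 9.53% of tested genes, but the change of 0.18 on the log2 scale (95% interval 0.07 to 0.30, unadjusted for the number of genes) did not pass (edgeR adjusted p = 0.128). The call of JUNB depended on the processing: it passed without control library 2 (adjusted p = 0.0280), with total counts as the only scaling (0.0450) and with no filter on low counts (0.0420). JUNB shares 259 exon bases with HOOK2 on the opposite strand (52.5 CPM on average, log2 fold change -0.01). The sources used here do not say whether counting used strand, so reads of the pair may be mixed.

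JUN (chromosome 1, 58780788 to 58784327, minus strand), the strongest activator of the subfamily, had 63.2, 67.8 and 55.9 CPM in the control libraries and 47.6, 54.2 and 58.2 with RBM24. The third control library lay inside the RBM24 range, so the groups overlapped (log2 fold change -0.22, 95% interval -0.38 to -0.06, unadjusted; edgeR adjusted p = 0.188). JUN passed in 1 of the 16 alternatives, the fit with no filter on low counts (adjusted p = 0.00907). JUND (chromosome 19, 18279760 to 18281622, minus strand), the constitutively expressed member, ranged from 101 to 118.5 CPM in the control libraries and from 108 to 114 with RBM24 (log2 fold change 0.02, 95% interval -0.10 to 0.14; adjusted p = 0.937).

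Of the remaining genes, ATF3 (chromosome 1, 212565334 to 212620777, plus strand), a stress-induced protein that represses transcription as a homodimer, had 19.0, 18.8 and 15.4 CPM in the control libraries and 13.7, 15.0 and 15.2 with RBM24. The ATF3 groups did not overlap, RBM24 being lower, as in 8.62% of tested genes, but 15.4 CPM in control library 3 was close to the RBM24 values. The change of -0.28 on the log2 scale (95% interval -0.45 to -0.10, unadjusted) did not pass (edgeR adjusted p = 0.127), though it did without control library 3 (-0.37, adjusted p = 0.0184) and with no filter on low counts (adjusted p = 0.0177). BATF3 (chromosome 1, 212686418 to 212699985, minus strand) had between 65 and 82 reads per library, with overlapping groups (log2 fold change -0.06, 95% interval -0.42 to 0.30; adjusted p = 0.931).

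**Figure D2:**
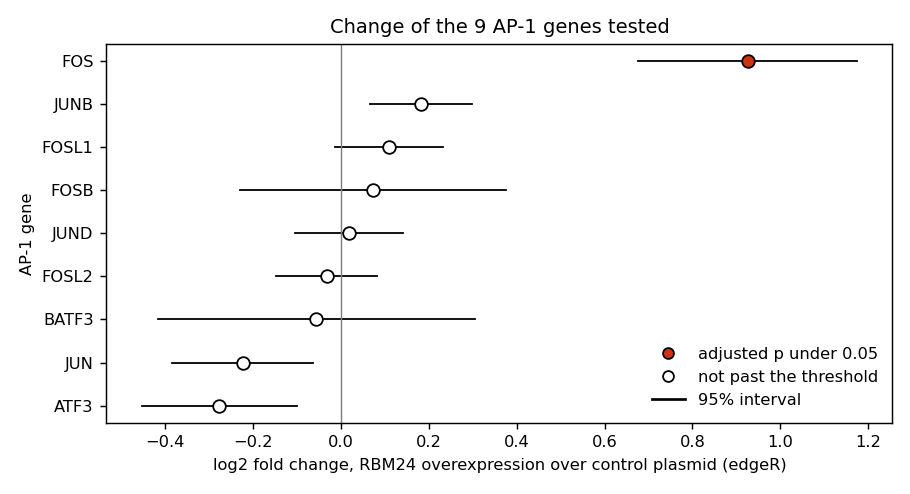
Log2 fold change (RBM24 overexpression over control plasmid, edgeR) of the 9 tested AP-1 genes with 95% intervals that are not adjusted for the number of genes; the filled point passed an adjusted p under 0.05. FOS lies at 0.93 and the other 8 genes between -0.28 and 0.18.

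The calls of these genes were also read under 16 alternatives, which differ in how many genes they call at all. Among edgeR fits the share called was 1.54% with DESeq2 size factors, 1.64% with a replicate block, 1.81% for genes with a mean count of at least 50, 1.84% with total counts only and 2% with no filter. Without 1 library it was 0.559%, 0.493% and 1.37% for RBM24 libraries 1, 2 and 3, and 1.03%, 1.58% and 1.81% for control libraries 1, 2 and 3. Limma on FPKM called 0.347% with a pseudocount of 0.1, 0.28% with 1, and 0.0603% with 1 and no filter.

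**Figure D3:**
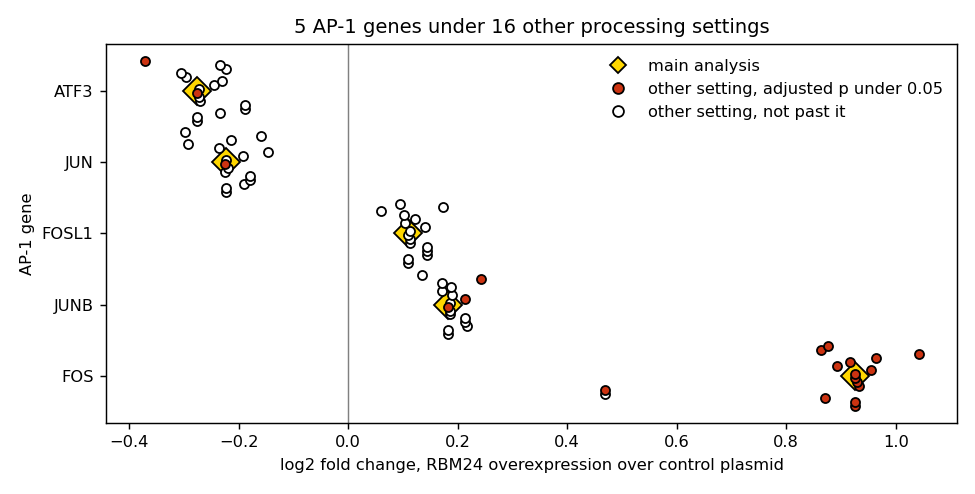
Log2 fold change of 5 AP-1 genes in the main analysis (diamonds) and under 16 alternatives (circles, filled where the adjusted p was under 0.05); the vertical spread within a gene only separates the points. FOS passed in 15 of 16, at 0.47 with a pseudocount of 1 on FPKM and between 0.86 and 1.04 in the remaining fits, while JUNB passed in 3, ATF3 in 2, JUN in 1 and FOSL1 in 0.

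The makeup of the family can be read as shares of the summed FPKM, in which library scaling cancels. FOS made up 0.465%, 0.318% and 0.360% of the FOS subfamily in the control libraries and 0.688%, 0.687% and 0.622% with RBM24. It thus remained below 1% of a sum in which FOSL1 held between 93.6% and 94.8% in every library. Within the JUN subfamily, JUN held 12.2%, 11.95% and 11.6% of the sum in the control libraries and 8.66%, 9.78% and 10.6% with RBM24. JUNB held 48.6% to 49.3% in the control libraries and 52.3% to 53.2% with RBM24, and JUND 39.1% to 39.3% and 36.9% to 39.0%. The groups did not overlap for any of these 3 shares, each with the smallest possible exact permutation p of 0.1 (0.192 adjusted).

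Set against each other, JUNB had 2.01, 2.06 and 2.16 reads per JUN read in the control libraries and 3.05, 2.75 and 2.50 with RBM24. Every RBM24 library was above every control library, by 0.41 on the log2 scale of the group means and by 0.34 to 0.48 when any 1 library was left out. The exact permutation p was 0.1, the smallest possible, and 0.192 after adjustment over the 25 quantities. ATF3 held 1.41%, 1.23% and 1.14% of the summed FPKM of all 10 genes in the control libraries and 0.913%, 1.01% and 1.01% with RBM24. The summed FPKM of the whole family was 318 ± 21.0 in the control libraries and 346 ± 3.65 with RBM24 (SD, n = 3 each; exact permutation p = 0.1, adjusted 0.192). The sum of the FOS subfamily was 182 ± 13.7 and 200.4 ± 3.78 (exact p = 0.1), that of the JUN subfamily 132 ± 8.87 and 142 ± 1.096 (exact p = 0.2), and that of ATF3, BATF and BATF3 4.5 ± 0.411 and 3.86 ± 0.263 (exact p = 0.2). The sums of the FOS subfamily do not overlap between groups in FPKM but do so in CPM scaled by TMM, at 411 to 460 in the control libraries and 449.8 to 469.9 with RBM24. The same holds for the whole family, whose FPKM sums were 300.9 to 341.8 in the control libraries and 343.6 to 350.6 with RBM24. In CPM, control library 2 lay above RBM24 library 2 in the FOS (460.3 against 449.8), JUN (326.0 against 312.2) and ATF/BATF sums (19.97 against 16.19).

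**Figure D4:**
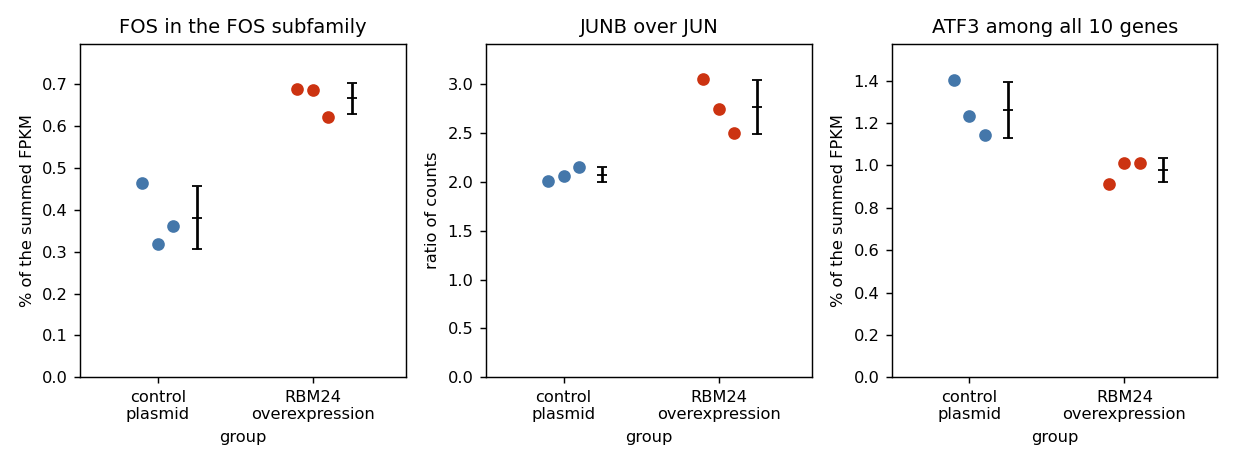
FOS as a percentage of the summed FPKM of the FOS subfamily, JUNB reads per JUN read, and ATF3 as a percentage of the summed FPKM of all 10 genes, each axis from 0; points are libraries and bars give mean and SD (n = 3). The groups do not overlap in any of the 3 panels, with FOS at 0.318% to 0.465% against 0.622% to 0.688%. The panels show 3 of 25 quantities, all 3 added after values had been seen, so their separation is a description and not a test.

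The 250 bases before the start sites of the immediate early genes FOS, FOSB, JUN and JUNB are shown, from RefSeq on GRCh38.p14, 5′ to 3′ on the strand of the gene. FOS is at chr14:75278578-75278827 and FOSB at chr19:45467746-45467995, both on the plus strand, JUN at chr1:58784048-58784297 on the minus strand and JUNB at chr19:12791236-12791485 on the plus strand. Capitals mark TGACG, the left arm of the cyclic AMP response element TGACGTCA, on either strand.
FOS: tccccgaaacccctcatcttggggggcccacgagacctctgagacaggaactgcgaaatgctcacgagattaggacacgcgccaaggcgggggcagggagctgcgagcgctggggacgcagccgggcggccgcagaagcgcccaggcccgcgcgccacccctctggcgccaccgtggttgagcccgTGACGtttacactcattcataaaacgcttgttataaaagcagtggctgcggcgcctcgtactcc
FOSB: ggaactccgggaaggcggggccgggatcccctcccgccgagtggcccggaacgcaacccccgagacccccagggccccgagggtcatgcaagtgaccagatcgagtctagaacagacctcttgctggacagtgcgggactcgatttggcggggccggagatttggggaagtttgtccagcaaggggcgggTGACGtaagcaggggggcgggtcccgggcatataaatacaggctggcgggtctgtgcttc
JUN: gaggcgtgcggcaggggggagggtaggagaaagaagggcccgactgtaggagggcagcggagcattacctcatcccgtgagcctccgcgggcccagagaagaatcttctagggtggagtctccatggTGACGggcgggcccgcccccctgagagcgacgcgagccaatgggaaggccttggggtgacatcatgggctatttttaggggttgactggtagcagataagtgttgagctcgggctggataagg
JUNB: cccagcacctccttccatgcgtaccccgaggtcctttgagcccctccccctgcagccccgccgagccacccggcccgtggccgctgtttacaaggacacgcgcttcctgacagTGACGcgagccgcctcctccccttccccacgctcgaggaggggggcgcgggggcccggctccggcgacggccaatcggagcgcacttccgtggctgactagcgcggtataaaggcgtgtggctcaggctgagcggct

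All of these stretches hold the arm TGACG once. In FOS it starts 64 bases before the start site and in FOSB 60 bases before it, in JUN 123 and in JUNB 137. A TATA box (TATAAA, gene strand) lies within 33 bases of the start in FOS, FOSB and JUNB, and has no match in the JUN stretch. Among the 8 members in the promoter table, 6 hold TGACG, against 24.9% of the 27305 genes there, a gene counting where any of its entries has a match. The members without a match are BATF and ATF3, the latter an immediate early gene whose stretches are not shown. The 8 members have 9 entries, and all entries were searched over the same length. TATAAA occurs in 4 of the 8, ATF3 being the other, and in 8.38% of genes. The AP-1 element TGANTCA, searched on both strands, has no match in any of the 8 and occurs in 8.06% of genes. The form with 1 more central base, TGANNTCA, which also covers TGACGTCA, occurs in JUN, JUND and ATF3 and in 12.2% of genes. In JUN and ATF3 the site reads TGACATCA, starting 67 and 123 bases before the start. A match is a description of letters and not a bound site, and whether these elements had a part in any change was not tested.

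The genes around AP-1 were described with 5 lists. They were chosen with earlier results of these data known, so counts set beside the shares of all genes describe a list and do not test it. Of 12 tested basic leucine zipper partners, 0 passed in edgeR, which called 1.54% of all tested genes, and 0 by DESeq2 and limma-voom. Their median log2 fold change was 0.004. An unadjusted p under 0.05 was reached by 3 of the 12, 2 with positive and 1 with negative changes, against 13% of all tested genes. The groups did not overlap for 3, all higher, against 18.1% of all tested genes. The smallest p belonged to JDP2, a JUN-dimerizing repressor (log2 fold change 0.29, adjusted p = 0.117), followed by the small MAF gene MAFF (-0.19, 0.152), the stress gene DDIT3 (0.18, 0.239) and MAFG (0.08, 0.574). JDP2 passed with no filter on low counts (adjusted p = 0.0332), as did MAFF (0.0334), which also passed without control library 3 (0.0236).

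Upstream, 0 of 23 tested RAS, RAF and MAP kinase genes and factors that activate FOS transcription passed in edgeR, against 1.54% of all tested genes. DESeq2 and limma-voom called 0 as well. An unadjusted p under 0.05 was reached by 1 of the 23, against 13% of all tested genes. The changes of the 23 genes lay between -0.11 and 0.12 on the log2 scale. SRF, which binds the serum response element of FOS, led them at 0.12 (adjusted p = 0.339), before RPS6KA3 (-0.11, 0.408), MAP2K1 (0.09, 0.493) and MAPK8, the JNK1 gene (0.10, 0.513).

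Of 16 tested turnover and feedback genes, 2 rose and 0 fell in edgeR, which called 1.54% of all tested genes. DESeq2 and limma-voom called 2 higher and 0 lower each. An unadjusted p under 0.05 was reached by 3 of the 16, 2 with positive and 1 with negative changes, against 13% of all tested genes. The groups did not overlap for 4 of the 16, all higher, against 18.1% of all tested genes. The 2 genes called were DUSP10 and DUSP5. Both are phosphatases of MAP kinases. DUSP10, which acts on JNK and p38, had 16.5, 17.4 and 16.9 CPM in the control libraries and 20.4, 21.8 and 22.7 with RBM24 (log2 fold change 0.35, edgeR adjusted p = 0.0113), and DUSP5, which acts on ERK in the nucleus, had 54.4, 53.95 and 51.0 against 60.4, 62.7 and 63.9 (0.23, adjusted p = 0.0303). Neither gene's groups overlap. ZFP36, whose product speeds the decay of FOS and other AU-rich mRNAs, did not pass (-0.15, adjusted p = 0.327), nor did ZFP36L1 (0.10, 0.397). The call of DUSP10 ended without RBM24 library 2 (adjusted p = 0.0754) and in all 3 limma fits on FPKM (0.0564 to 0.143). That of DUSP5 ended there too (0.0527 to 0.128) and without control library 3 or any 1 of the RBM24 libraries (0.0843 to 0.195).

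Among 20 other immediate early genes, 2 rose and 1 fell in edgeR, with a median log2 fold change of 0.004 (DESeq2 called 3 higher and 1 lower, limma-voom 2 and 1). This list, too, was chosen with earlier results of these data known, and edgeR called 1.54% of all tested genes. An unadjusted p under 0.05 was reached by 8 of the 20, 5 with positive and 3 with negative changes, against 13% of all tested genes. The libraries of the groups did not overlap for 10 of them, 6 higher and 4 lower, against 18.1% of all tested genes. The matricellular gene CCN2, a target of YAP and SRF, rose from 38.8, 39.0 and 42.3 to 52.3, 55.6 and 58.0 CPM (log2 fold change 0.47, edgeR adjusted p = 4.25e-04). IER2 rose from 70.4, 73.5 and 67.8 to 86.4, 86.1 and 82.2 CPM (0.27, adjusted p = 0.0115), and the anti-proliferative BTG2 fell from 11.2, 11.2 and 10.1 to 7.83, 8.87 and 8.87 (-0.35, adjusted p = 0.0466). None of these 3 had overlapping groups. KLF2 did not pass (0.51, adjusted p = 0.0698), though it did with total counts as the only scaling (0.0465) and with no filter on low counts (0.0366). EGR1, the immediate early gene most often read beside FOS and named here after its value was seen, had a log2 fold change of 0.07 (95% interval -0.09 to 0.22, adjusted p = 0.777). The call of BTG2 was lost in 10 of 16 alternatives, among them all but 1 of the fits without a library (adjusted p = 0.0591 to 0.258, control library 3 being the exception). The call of IER2 ended without RBM24 library 1 (0.0727) or 2 (0.104), and both IER2 (0.101) and CCN2 (0.130) lost it with limma on log2(FPKM + 1) over all genes.

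Of 28 textbook AP-1 target genes, 23 were tested, 2 rose and 2 fell in edgeR, with a median log2 fold change of -0.04 (DESeq2 called 2 higher and 1 lower, limma-voom 2 and 2). The target list was also chosen with earlier results of these data known, and edgeR called 1.54% of all tested genes. An unadjusted p under 0.05 was reached by 7 of the 23, 3 with positive and 4 with negative changes, against 13% of all tested genes, and the groups did not overlap for 5, 3 higher and 2 lower, against 18.1%. HMOX1 (0.77, edgeR adjusted p = 1.93e-05) and the collagenase gene MMP1 (1.01, adjusted p = 0.00498) rose. Whether AP-1 had a part in any change of this list was not tested. The urokinase gene PLAU fell from 986, 962.5 and 820.3 to 661, 702 and 747 CPM (-0.39, adjusted p = 0.00893), and the chemokine gene CCL2 from 28.1, 23.7 and 18.8 to 13.0, 14.8 and 17.3 CPM (-0.64, adjusted p = 0.0113). The 5 targets that did not pass the filter were MMP9 and the keratinocyte differentiation genes IVL, SPRR1A, SPRR1B and SPRR3, with between 3 and 36 reads over all 6 libraries. PLAU no longer passed when RBM24 library 1 (adjusted p = 0.0551) or 2 (0.0664) was left out, nor did CCL2 without RBM24 library 2 (0.0575) and by DESeq2 (0.0573). MMP1, PLAU and CCL2 also lost it in all 3 limma fits on FPKM (0.102 to 0.359).

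**Figure D5:**
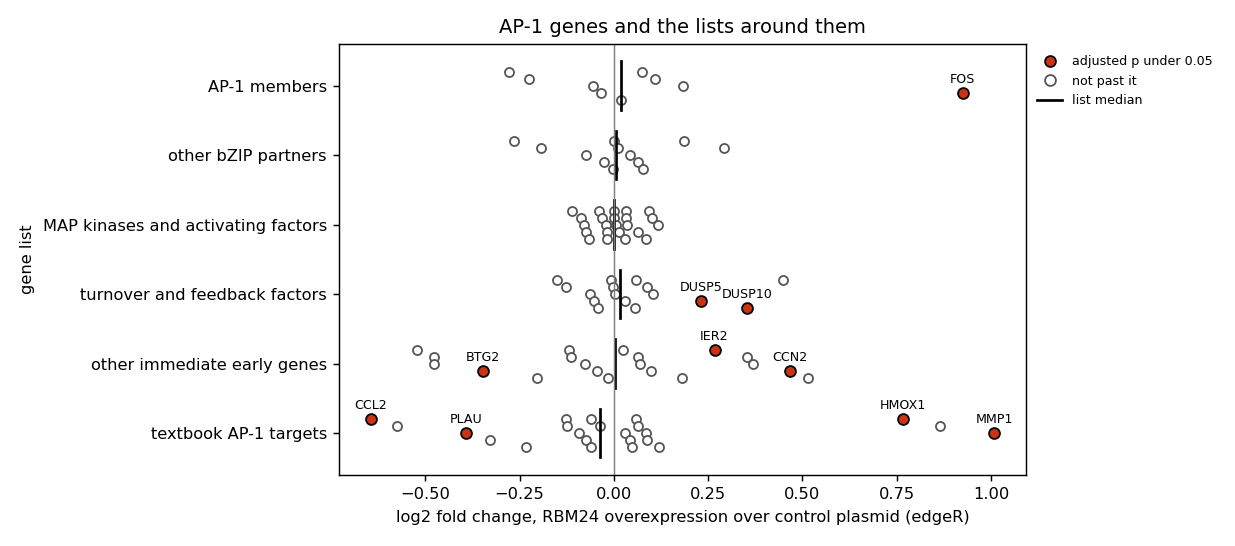
Log2 fold change (RBM24 overexpression over control plasmid, edgeR) of the tested genes of the AP-1 family and of 5 lists around it, 1 point a gene, filled and named where the adjusted p was under 0.05; the vertical bar is the list's median. The medians lie between -0.04 and 0.02, and FOS is the 1 filled AP-1 gene.

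The genes whose log2 CPM ran most nearly parallel to a member over the 6 libraries were taken from 8270 genes whose log2 CPM averaged 4 or more, for the member with the smallest p in each subfamily. For FOS they were PIP4K2A (Pearson r = 0.990), PARP2 (0.990) and TYMS (0.987), whose own changes did not pass in edgeR (log2 fold change 0.11 to 0.17). For JUNB they were PCBP1 (0.991), QDPR (0.991) and UBE2Q1 (0.984), and none of these passed either. For ATF3 they were KRT6B (0.996), HLA-F (0.994) and the epithelial cytokine gene IL17C (0.993). KRT6B (-0.54, adjusted p = 0.0418) and IL17C (-0.81, adjusted p = 0.00622) fell. High values were common over the 6 libraries: 174 of the 8270 genes had r over 0.9 with FOS, 126 with JUNB and 178 with ATF3.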

How the data were processed

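Raw gene counts and FPKM values were used as the authors deposited them, for 3 control plasmid and 3 RBM24 libraries, read as 150-nt pairs per the labels. Columns marked NC were read as control plasmid and those marked OE_RBM24 as overexpression. HISAT2 and the build GRCh38 are named in the submitters' processing notes. For the aligner's version, the counter, its annotation and its strand setting, nothing is stated in the labels. The deposited FPKM values had been divided by gene length and library total by the authors and rounded to 2 decimals. Total counts ranged from 53558773 to 68804210, so genes with few reads, such as BATF, are imprecise.

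The main test was edgeR 4.0.16 under R 4.3.3 (filterByExpr, TMM, quasi-likelihood F test on group alone, Benjamini-Hochberg over 17887 genes), tested on simulated data. SEs come from the fitted coefficient and its F statistic, and 95% intervals from the SE. Alternatives used DESeq2 1.42.0, limma 3.58.1, other scalings and filters, a replicate block and each library left out. The members and lists were chosen with earlier results of these data known. Named genes are the 10 members, RBM24, up to 4 members of each of 5 lists with the smallest p, and, for the member of each subfamily with the smallest p, the 3 genes with the highest r. Exact tests used scipy 1.17.1. Gene positions come from GENCODE 29.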

Additional observations from a re-analysis of the deposited data

How the results depend on the processing

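FOS kept its direction in all 16 alternatives and its call in 15 of them, with log2 fold changes from 0.47 to 1.04. The number of AP-1 genes called higher was 2 with no filter on low counts, with total counts only and without control library 2, and 0 with limma on log2(FPKM + 1) with no filter; leaving out 1 library gave 1 to 2. The number lower was 2 with no filter, and 0 to 1 when 1 library was left out, against 0. Over all genes, 153 rose and 122 fell, against 57 and 5 with limma on log2(FPKM + 0.1), 46 and 4 with log2(FPKM + 1), 15 and 4 with log2(FPKM + 1) and no filter, and 305 and 341 in edgeR with no filter. Leaving out 1 library gave 61 to 171 higher and 29 to 198 lower. In the 5 lists together, 6 rose and 3 fell; the counts were 3 and 0 with limma on log2(FPKM + 0.1) and on log2(FPKM + 1), 1 and 0 without a filter on FPKM, 5 lower in edgeR with no filter, and 3 to 6 higher and 0 to 5 lower when 1 library was left out. Total counts only made 67.8% of all calls higher, against 55.6%, and moved the median of all genes from -0.004 to 0.03.

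The replicate block gave 158 higher and 135 lower over all genes and 1 AP-1 gene higher. Deviations of same-numbered libraries from their group means had correlations of 0.0072, 0.056 and -0.00039, and those of differently numbered libraries -0.109 to 0.091. With 3 libraries per group, these values cannot settle whether same-numbered libraries were paired, and the labels state no pairing. The log2 ratio of the summed FPKM, 0.14 for the FOS subfamily, was 0.08 without control library 1 and 0.08 to 0.19 over its alternatives. That of the JUN subfamily, 0.11, was 0.05 with summed CPM, 0.16 without control library 2 and 0.05 to 0.16 over all. That of ATF3, BATF and BATF3, -0.22, ranged from -0.29 to -0.17, and that of JUNB to JUN counts, 0.41, from 0.34 to 0.48. All kept their sign. For the FOS subfamily sum and the ratio of JUNB to JUN, whose groups do not overlap, leaving out 1 library could not have changed it. In genes with few reads, such as BATF3 and FOS, counting error limits the precision.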
